A study of Mus musculus with 160 samples.

Results

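The G1 cyclins, their kinases and their inhibitors were followed across the Gata3-GFP aorta-gonads-mesonephros (AGM) series as 9 genes of the 46078 in the count table. They were Ccnd1, Ccnd2 and Ccnd3 (the D cyclins), Cdk4 and Cdk6 (the kinases these cyclins activate), and Cdkn1a, Cdkn1b, Cdkn2c and Cdkn2d (inhibitors). Members were taken by name: each was the row whose Ensembl identifier carries that symbol in the GENCODE mouse annotation, and all 9 were found. The data were Smart-seq2 RNA-seq libraries, each made from a pool of 20 sorted cells, with 20 pools from each of 8 populations (160 in all).

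All embryos carried 1 Gata3-GFP reporter allele (Gata3-GFP +/-), so the GFP+ and GFP- fractions shared the genotype and differed in reporter fluorescence. At E10.5, endothelial cells (EC) were sorted as Cdh5+ CD41- CD45- and hematopoietic cells (HC) as CD41+ CD45+ by the labels; the study's methods write CD41/45+, which leaves unsettled whether each cell carried both markers or either. At E11.5, mesenchymal cells (MC) were sorted as Pdgfrb+ and sympathetic nervous system cells (SNS) as Ngfr+. Each type was split into Gata3-GFP+ and Gata3-GFP- pools, and stage cannot be told apart from cell type where ECs or HCs are set beside MCs or SNS cells. For the E10.5 populations, cells of several biological replicates were first sorted into tubes by population and then sorted again into wells, and which replicate a pool came from is not given in the sources used here. The p-values below therefore measure the spread between pools, which may share embryos.

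Progress through G1 depends on the D cyclins, which bind CDK4 or CDK6 and direct them to phosphorylate the retinoblastoma protein RB1, releasing E2F factors that drive entry into S phase. The INK4 inhibitors, among them Cdkn2c (p18) and Cdkn2d (p19), bind CDK4 and CDK6 themselves, whereas the Cip/Kip inhibitors, Cdkn1a (p21), Cdkn1b (p27) and Cdkn1c (p57), bind cyclin-kinase complexes. In the AGM, hematopoietic stem cell precursors arise from endothelium of the dorsal aorta, next to mesenchyme and developing sympathetic ganglia, and the balance of these genes is known to differ between dividing and resting stem cells.

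The study's own quality limits removed 7 pools, and those left had 1400824 to 16004756 counts on genes. In all 79 E10.5 pools the marker list of the labelled cell type had the highest sum, but in 12 of the 74 E11.5 pools the markers of the other E11.5 type exceeded those of the label, 3 pools in each of the 4 E11.5 populations. In the 3 libraries labelled Gata3-GFP- SNS of this kind, the 7 SNS markers summed to between 16.8 and 27.8 CPM (counts divided by the total of the pool and scaled to the same total) and the 7 mesenchymal markers to between 3224 and 4039 CPM. The 3 libraries labelled Gata3-GFP- MC had 46.7 to 100 CPM of mesenchymal and 1582 to 3399 CPM of SNS markers. The libraries labelled Gata3-GFP+ SNS (SNS 17.8 to 36.6 CPM, mesenchymal 2229 to 2421 CPM) and Gata3-GFP+ MC (mesenchymal 254.2 to 401.1 CPM, SNS 508 to 837.5 CPM) showed the same. These pools kept their labels. E11.5 levels and shares are those of the 62 matching pools unless stated, and the calls of members are given with and without the 12 pools.

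**Figure D1:**
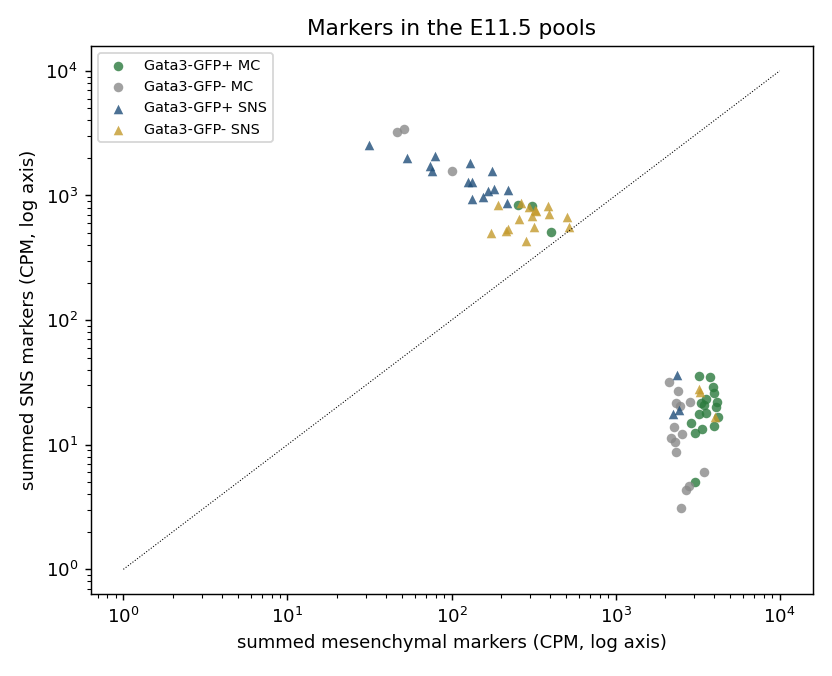
Summed CPM of 7 mesenchymal markers (x, log axis) against 7 SNS markers (y, log axis) in the 74 E11.5 pools, 1 point per pool, with circles for pools labelled MC, triangles for pools labelled SNS, and the dotted line marking equal sums. In each of the 4 populations 3 pools lie on the side of the line that belongs to the other cell type; the libraries labelled Gata3-GFP- SNS among them have 3224 to 4039 CPM of mesenchymal markers.

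Gata3 itself was measured at 78.7 ± 30.01 CPM (SD, n = 19) in GFP+ and 12.2 ± 6.90 CPM (n = 20) in GFP- ECs, and at 50.05 ± 31.4 CPM in GFP+ and 6.91 ± 2.98 CPM in GFP- HCs (n = 20 each). Among the 62 E11.5 pools that match their label, no GFP- pool reached the Gata3 level of any GFP+ pool of its cell type. The 3 libraries labelled Gata3-GFP- MC that carried SNS markers had 122.7 to 395.2 CPM of Gata3, above the 19.7 to 70.5 CPM of the 17 matching GFP+ MC pools.

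The genes lie on separate chromosome segments of mm10 (GRCm38). Ccnd1 is at chr7:144929931-144939925 and Ccnd2 at chr6:127125162-127152193, both on the minus strand, and Ccnd3 is at chr17:47505051-47599691 on the plus strand. Cdk4 is at chr10:127063534-127067920 and Cdk6 at chr5:3341485-3531008, both on the plus strand. On the plus strand are also Cdkn1a (chr17:29090976-29100727) and Cdkn1b (chr6:134920401-134925513), whereas Cdkn2c (chr4:109660876-109667189) and Cdkn2d (chr9:21288410-21291407) are on the minus strand. Smart-seq2 does not mark strand, and exons of an opposite-strand gene cover 23.4% of the Ccnd1 exon bases (LTO1) and 19.7% of those of Cdk4 (Tspan31), so reads from those stretches cannot be assigned. The share was at most 7.87% for the other members and 0 for Cdkn1b, Cdkn2c and Cdkn2d.

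Among the D cyclins, Ccnd1 spanned the widest range over the 8 populations. In the pools that match their label Gata3-GFP+ ECs had the lowest mean, 17.8 ± 16.3 CPM (SD, n = 19), and Gata3-GFP+ SNS cells the highest, 668.5 ± 178.2 CPM (n = 15), a ratio of 37.6 (31.9 with the 12 pools included). Ccnd2, the close relative of Ccnd1, ran from 181.5 ± 71.4 CPM (n = 20) in Gata3-GFP- HCs to 983.4 ± 233.1 CPM (n = 15) in Gata3-GFP+ SNS cells. Ccnd3 was the most even of the D cyclins, and both its lowest mean (149.6 ± 43.1 CPM, Gata3-GFP-) and its highest (291.0 ± 160.7 CPM, Gata3-GFP+) were those of HCs (n = 20 each). The plot of log2(CPM + 1) by pool shows these ranges for all 9 genes.

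Cdk4 was high everywhere, with means from 557.9 ± 84.8 CPM (n = 20) in Gata3-GFP- HCs to 1278 ± 102.6 CPM (n = 15) in Gata3-GFP+ SNS cells. Cdk6 had its own order: it was highest in Gata3-GFP- HCs (204.0 ± 48.6 CPM, n = 20) and lowest in Gata3-GFP+ MCs (36.3 ± 14.5 CPM, n = 17). Per kilobase of exon Cdk4 exceeded Cdk6 in every pool that matches its label, and the median share of Cdk6 in the summed kinase level per kilobase ranged between 0.711% in Gata3-GFP+ MCs and 7.81% in Gata3-GFP- HCs.

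Of the inhibitors, Cdkn2d had its highest mean in Gata3-GFP+ HCs (204.8 ± 171.1 CPM, n = 20) and stayed between 28.7 and 65.2 CPM in the other 7 populations. Cdkn1b was highest in Gata3-GFP+ ECs (45.05 ± 11.3 CPM, n = 19) and lowest in Gata3-GFP+ HCs (17.3 ± 12.4 CPM, n = 20). Cdkn1a and Cdkn2c were both highest in Gata3-GFP- HCs, at 40.4 ± 20.0 CPM and 10.7 ± 8.21 CPM (n = 20). In mesenchyme Cdkn1a had 0 counts in 10 of 17 Gata3-GFP+ pools and in 10 of 14 Gata3-GFP- pools; the ratio of its highest to its lowest population mean was 145.8 in the matching pools and 32.97 with the 12 pools included. A count of 0 allows up to 3 counts, which is 0.187 to 2.14 CPM depending on the depth of the pool.

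Relatives outside the 9 members frame these levels. Cdkn1c, a Cip/Kip gene, had a mean of 4688 ± 625 CPM (n = 15) in Gata3-GFP+ SNS cells and 19.5 ± 24.5 CPM (n = 20) in Gata3-GFP- HCs. Per kilobase of exon it was above all 4 member inhibitors in every EC pool and in every E11.5 pool that matches its label, and in 12 of 20 Gata3-GFP+ HC pools, the other 8 being led by Cdkn2d. In Gata3-GFP- HCs, Cdkn2d led in 17 of 20 pools. Cdkn2a and Cdkn2b, the remaining INK4 genes, were at or near 0: Cdkn2a reached at most 0.443 CPM in any population and Cdkn2b at most 8.69 CPM.

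**Figure D2:**
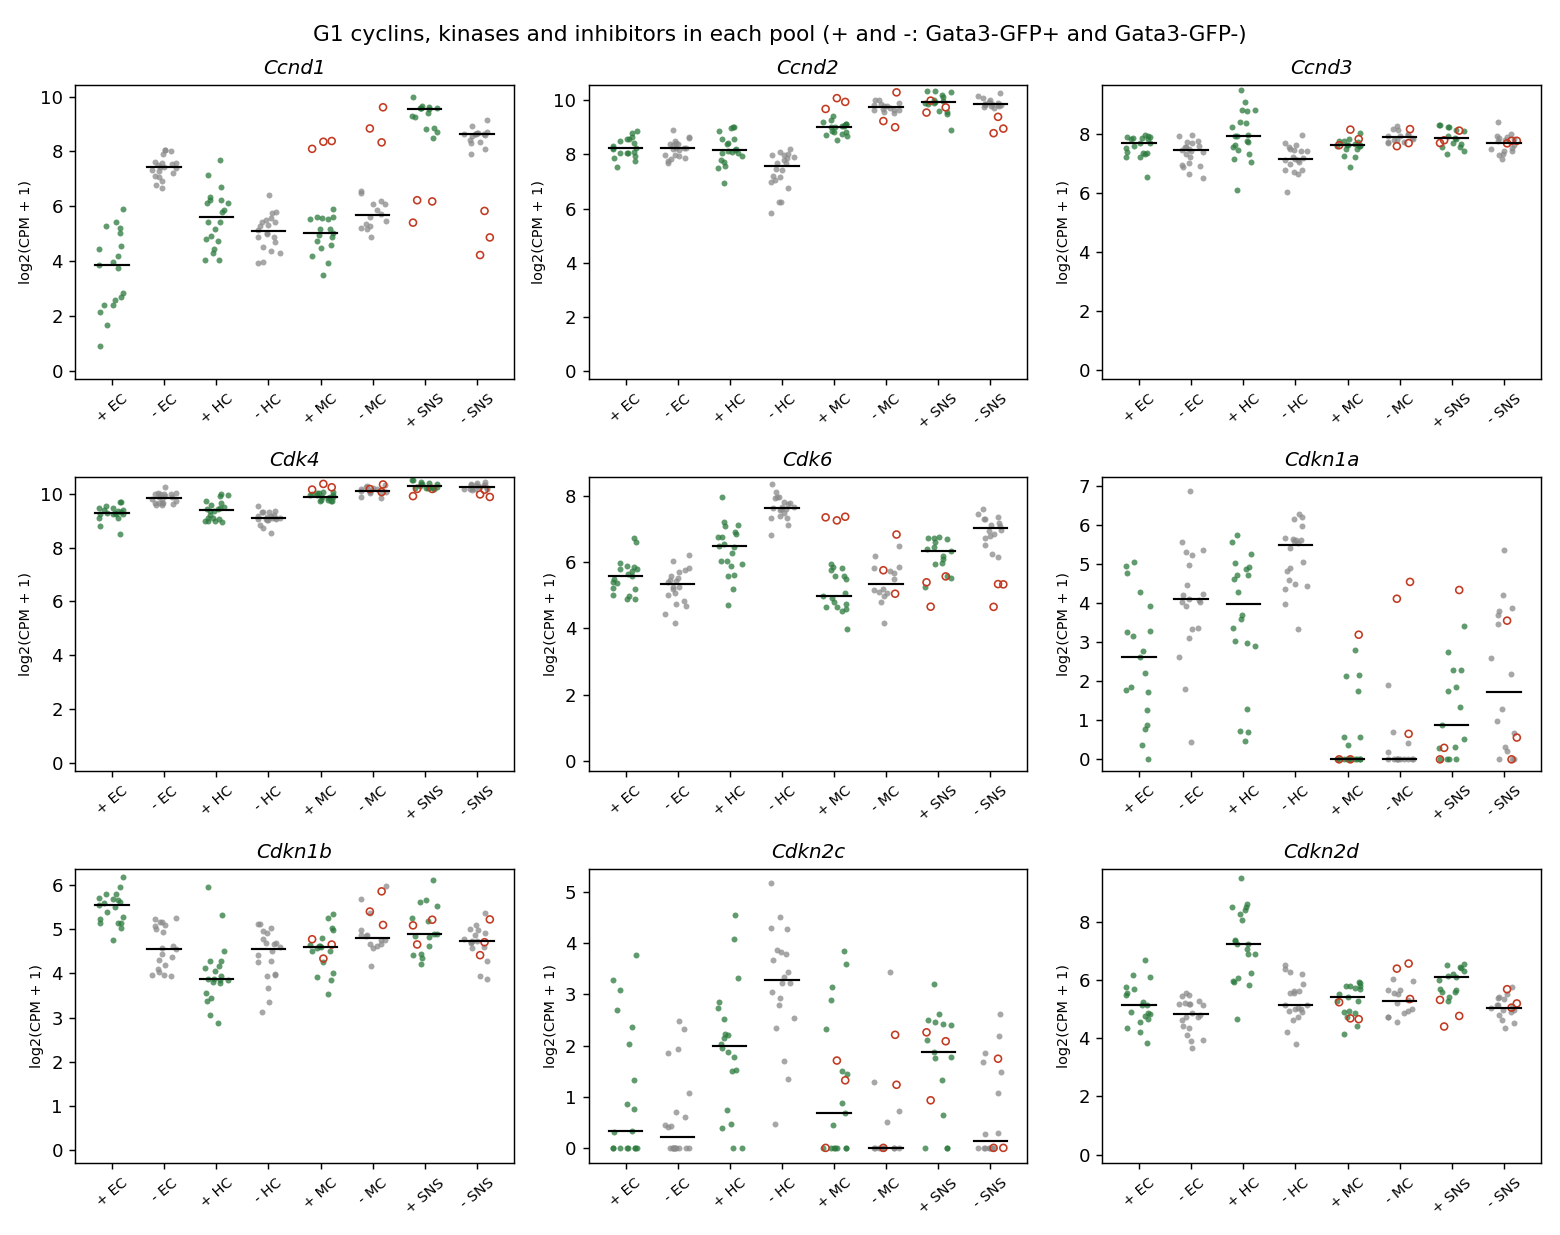
Level of each of the 9 genes in each passing pool, as log2(CPM + 1), for the 8 populations (+ and - mark Gata3-GFP+ and Gata3-GFP-). Points are pools, horizontal bars are medians of the pools matching their label, and open red circles are the 12 E11.5 pools in which the other cell type's markers led; for Ccnd1 those labelled Gata3-GFP- MC lie at 320.8 to 780.7 CPM and those labelled Gata3-GFP- SNS at 17.6 to 55.8 CPM.

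The 8 populations were ordered by mean CPM in the matching pools for each gene, and neighbours in the order were compared. Such neighbours have the closest means by construction, so few calls were built into the choice. The shares of all genes given beside them come from the same pairs, which were not chosen by the order of those genes. From the top, Ccnd1 ran Gata3-GFP+ SNS, Gata3-GFP- SNS, Gata3-GFP- EC, Gata3-GFP+ HC, Gata3-GFP- MC, Gata3-GFP- HC, Gata3-GFP+ MC and Gata3-GFP+ EC. A difference was called where the Benjamini-Hochberg adjusted p of the edgeR quasi-likelihood test over all genes was under 0.01 and the log2 fold change was beyond 0.1. By this rule 3 of the 7 neighbouring steps of Ccnd1 were called: Gata3-GFP- SNS over Gata3-GFP- EC (beside 36.4% of all genes), Gata3-GFP- EC over Gata3-GFP+ HC (36.4%), and Gata3-GFP+ MC over Gata3-GFP+ EC (37.9%). For Ccnd2 the called steps were Gata3-GFP- MC over Gata3-GFP+ MC (7.01%), Gata3-GFP+ MC over Gata3-GFP+ HC (43.9%), and Gata3-GFP- EC over Gata3-GFP- HC (38.4%). Cdk6 had 2 such steps (Gata3-GFP- HC over Gata3-GFP- SNS, 51.2%, and Gata3-GFP+ SNS over Gata3-GFP+ EC, 44.9%), Cdk4 had 1 (Gata3-GFP- EC over Gata3-GFP+ HC) and Cdkn2d had 1 (Gata3-GFP+ HC over Gata3-GFP+ SNS, 40.6%), while Ccnd3, Cdkn1a, Cdkn1b and Cdkn2c had none. Over all neighbouring pairs of the 9 members, these 10 calls stand beside 5.83% to 57.3% of all genes called, with a median of 38.25%. With the 12 pools included the calls fell to 6, those of Ccnd1 to 0, beside 3.38% to 57.3% of all genes (median 37.2%).

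The D cyclins differed between populations in which of them led. Set against the sum of the 3 levels per kilobase of exon, Ccnd1 made up a median of 5.11% in Gata3-GFP+ ECs, within a range of 0.303% to 14.4%, and 42.05% in Gata3-GFP- ECs, within 31.4% to 50.95%. No pool of either fraction entered the range of the other, but how often other genes or shares were separated in this way was not counted. Ccnd1 was the leading D cyclin in 12 of 20 Gata3-GFP- EC pools and in none of the 19 Gata3-GFP+ EC pools, where Ccnd2 led in 16 and Ccnd3 in 3. In HCs the leader was shared by Ccnd2 (11 of 20 pools in both fractions) and Ccnd3 (8 of 20 in Gata3-GFP+ and 9 of 20 in Gata3-GFP- HCs).

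At E11.5, Ccnd2 led in every matching MC pool, with a median share of 65.4% in Gata3-GFP+ and 69.8% in Gata3-GFP- MCs. In SNS cells Ccnd1 led in 14 of 15 Gata3-GFP+ pools (median share 51.6%) and Ccnd2 in 15 of 16 Gata3-GFP- pools (median share 48.5%). Including the 12 pools moved the median Ccnd1 share in Gata3-GFP+ SNS cells to 49.3% and stretched its range from 43.8% to 57.7% into 7.84% to 57.7%. On CPM without division by exon length, Ccnd2 had the highest median share in Gata3-GFP- ECs and Gata3-GFP+ SNS cells as well.

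**Figure D3:**
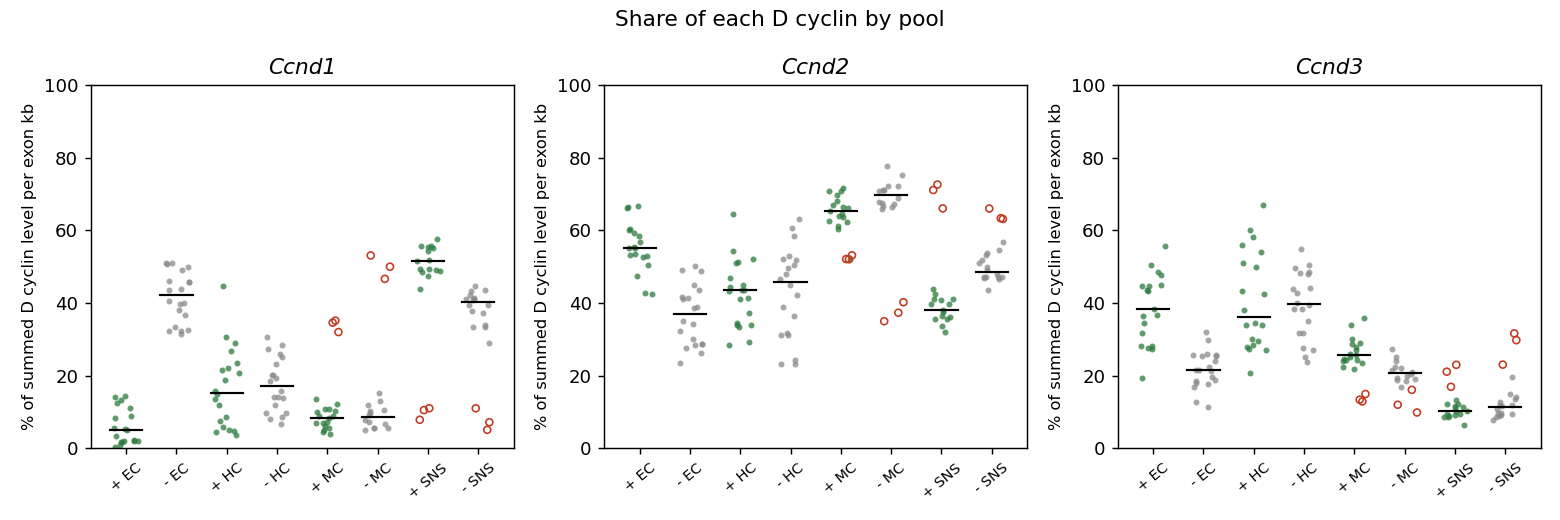
Share (%) of Ccnd1, Ccnd2 and Ccnd3 in the summed D cyclin level per exon kilobase, by pool and population; bars are medians of the matching pools and open red circles are the 12 E11.5 pools with the other type's markers. The Ccnd1 share lies at 0.303% to 14.4% in Gata3-GFP+ ECs and at 31.4% to 50.95% in Gata3-GFP- ECs, without overlap. How often other genes or shares were separated in this way was not counted.

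The first comparison asked how Gata3-GFP+ and Gata3-GFP- ECs differ at E10.5. Ccnd1 and Cdk4 were lower in Gata3-GFP+ ECs and Cdkn1b was higher, so 3 of the 9 members were called, beside 35.98% of the 15073 genes tested. Ccnd1 lay between 0.861 and 58.1 CPM (median 13.3) in the 19 Gata3-GFP+ pools and between 101.2 and 265.4 CPM (median 172.6) in the 20 Gata3-GFP- pools. The fractions did not overlap, and how many of all genes were separated in this way was not counted. The log2 fold change was -3.35 ± 0.32 (SE), which is 10.2-fold lower (adjusted p = 1.1e-11), the largest of the 9 genes in this comparison.

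Ccnd2 and Ccnd3 were not called. Ccnd2 had medians of 299.4 CPM in Gata3-GFP+ and 297.9 CPM in Gata3-GFP- ECs, with overlapping ranges, and its log2 difference of 0.01 had a 95% interval of -0.20 to 0.21. For Ccnd3 the difference was 0.18 (interval -0.05 to 0.41, adjusted p = 0.200). Cdk4 ran from 367.4 to 835.2 CPM (median 629.6) in Gata3-GFP+ ECs and from 757.5 to 1227 CPM (median 917.7) in Gata3-GFP- ECs. Of the Gata3-GFP+ pools, 17 of 19 lay below every Gata3-GFP- pool, and the log2 fold change was -0.57 ± 0.07 (adjusted p = 1.3e-08). Cdk6, the alternative partner, was at medians of 47.1 and 39.2 CPM with a difference of 0.27 (interval -0.06 to 0.61, adjusted p = 0.185).

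Cdkn1b, whose protein p27 holds cyclin-kinase complexes inactive in resting cells, ran from 26.1 to 72.2 CPM (median 45.8) in Gata3-GFP+ ECs and from 14.5 to 37.1 CPM (median 22.7) in Gata3-GFP- ECs. All 19 Gata3-GFP+ pools were above the Gata3-GFP- median and 13 were above every Gata3-GFP- pool, with a log2 fold change of 0.84 ± 0.14 (adjusted p = 4.1e-06). Cdkn1a, a target of p53, went the other way without passing the limit (-1.45 ± 0.50, adjusted p = 0.0165), as its pools scattered from 0 to 31.9 CPM and from 0.350 to 116.8 CPM. Cdkn2c (1.36 ± 0.80) and Cdkn2d (0.42 ± 0.21) were not called. Cdkn1c was called at 1.35 ± 0.13.

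The ratio of gene counts to counts of the ERCC spike-in RNAs was lower in Gata3-GFP+ ECs (5.95 ± 0.44 on the log2 scale, SD, n = 19) than in Gata3-GFP- ECs (6.66 ± 0.41, n = 20). In pools of this kind fewer intact cells and less RNA per cell cannot be told apart. Summed markers of other cells were also higher in Gata3-GFP+ than in Gata3-GFP- ECs. The 3 smooth muscle markers summed to 12.6 to 3187 against 3.30 to 29.6 CPM and the 7 mesenchymal markers to 19.95 to 1319 against 1.61 to 66.5 CPM. The 7 epithelial markers summed to 22.35 to 124.5 against 0.350 to 8.89 CPM, and the 7 hematopoietic markers to 174.9 to 434.9 against 43.5 to 139.5 CPM. Laptm5 held most of the hematopoietic sum, with medians of 200.8 and 53.8 CPM. The medians of Spi1 and Coro1a were also higher in Gata3-GFP+ ECs, whereas those of Ptprc, Itga2b, Vav1 and Tyrobp were lower. The part of these markers of other cells in the differences above was not tested. Without the 1 Gata3-GFP+ EC pool with more than 500 CPM of mesenchymal and SNS markers Ccnd1 (-3.47), Cdk4 (-0.61) and Cdkn1b (0.80) were called. Of all genes, 2771 were then called higher and 2547 lower. When libraries were scaled to the ERCC RNAs, the median log2 fold change of all genes moved from 0.10 to -0.60. Ccnd1 (-4.05) and Cdk4 (-1.31) then remained lower, Ccnd2 (-0.63), Ccnd3 (-0.64) and Cdkn1a (-2.05) were called lower in Gata3-GFP+ ECs as well, and Cdkn1b (0.25, adjusted p = 0.315) was no longer called. Of the 15073 genes tested, 951 were called higher and 5685 lower under this scaling.

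In the lists around these genes, of 16 proliferation genes 13 fell and none rose in Gata3-GFP+ ECs, with a median log2 fold change of -1.05 (Mcm5 -1.39, Pcna -1.39), beside 0.10 over all genes. The E and A cyclin list held Ccne1, Ccne2, Ccna1, Ccna2, their kinase gene Cdk2 and also Cdc25a. Of its 5 tested genes, Ccne2 (-1.41) and Ccna2 (-1.26) fell. Of 13 genes for CDK assembly and the turnover of p27 and D cyclins, 6 fell, with Cks1b (-1.05) and Cks2 (-0.95) the most, and 1 rose (Gsk3b, whose kinase marks cyclin D1 for export and degradation, 0.41).

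Of the pocket proteins, Rb1 rose (0.97). Myc, an activator of cell growth genes, fell (-1.85). Of 10 E2F factors and partners 3 fell (E2f1 -1.12 and Tfdp1 -0.83 among them) and Tfdp2 rose (0.85), and of 16 p53 genes 5 rose (Pmaip1 3.44, Btg2 1.73) and 6 fell (Eda2r -2.73, Aen -0.83). In the CDK-activating kinase Ccnh fell (-0.55), and no FoxO factor of 3 was called.

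**Figure D4:**
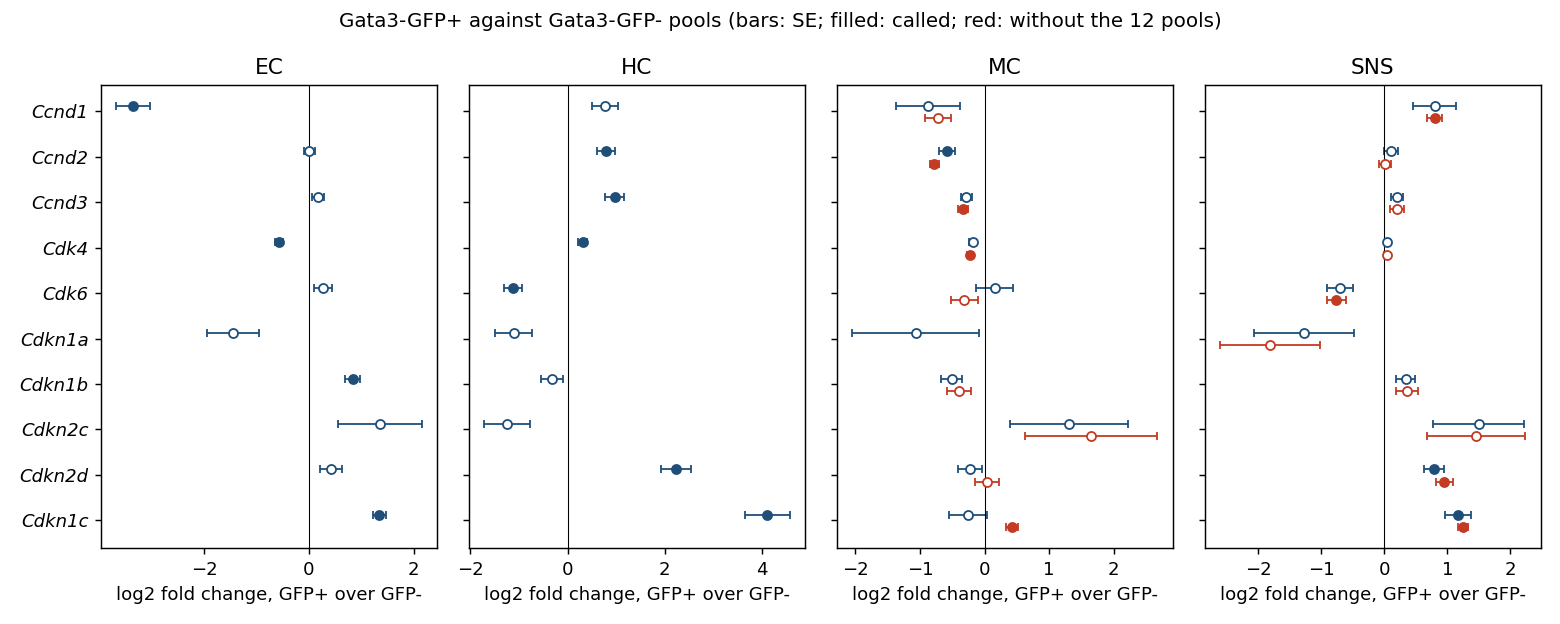
Log2 fold change of Gata3-GFP+ over Gata3-GFP- pools (x) for the 9 members and Cdkn1c in the 4 cell types, with bars for the SE; filled points were called (adjusted p under 0.01, log2 fold change beyond 0.1). Blue is the fit of all passing pools and red the fit without the 12 E11.5 pools that go against their label; Ccnd1 is at -3.35 in ECs and, among the matching pools, at 0.80 in SNS cells.

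In HCs the same contrast gave another set. Ccnd2, Ccnd3, Cdk4 and Cdkn2d were higher and Cdk6 was lower in Gata3-GFP+ than in Gata3-GFP- HCs, 5 of 9 members beside 26.6% of the 16200 genes tested. Ccnd2 lay between 122.3 and 521.8 CPM (median 282.3) in Gata3-GFP+ HCs and between 55.8 and 295.3 CPM (median 189.0) in Gata3-GFP- HCs (n = 20 each). Gata3-GFP+ pools were higher in 17 of 20 cases than the Gata3-GFP- median, with overlapping ranges and a log2 fold change of 0.80 ± 0.18 (adjusted p = 0.000532), a call lost under ERCC scaling (0.73, adjusted p = 0.0108).

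Ccnd3, the D cyclin best known from lymphoid and erythroid cells, ran from 68.6 to 720.6 CPM (median 244.7) in Gata3-GFP+ and from 64.8 to 248.6 CPM (median 143.3) in Gata3-GFP- HCs. Here 9 of 20 Gata3-GFP+ pools exceeded every Gata3-GFP- pool (0.97 ± 0.19, adjusted p = 9.5e-05). Ccnd1 was not called (0.77 ± 0.27, adjusted p = 0.0214), with medians of 47.8 and 32.9 CPM.

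The kinases moved in opposite directions in HCs. Cdk6, which has prominent roles in blood cells, lay between 25.3 and 250.2 CPM (median 87.7) in Gata3-GFP+ HCs and between 112.03 and 323.8 CPM (median 197.4) in Gata3-GFP- HCs. Of the Gata3-GFP+ pools, 14 of 20 fell below every Gata3-GFP- pool, with a log2 fold change of -1.12 ± 0.18 (adjusted p = 4.3e-06). Cdk4 was slightly higher (medians 679.3 and 550.1 CPM, 0.31 ± 0.09, adjusted p = 0.00521), and this call was lost in 5 of 12 alternative settings. Some of these settings could not lose it, because they repeated the same fit or only loosened the threshold.

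The sequences upstream of Cdk4 and Cdk6 are shown because these partners of the same cyclins differed in direction, and that of Cdkn2d because it had the largest increase in HCs. Each run is the 250 bases before the annotated start in RefSeq (GRCm38.p6), 5′ to 3′ on the strand of the gene: Cdk4 at chr10:127063285-127063534 (plus), Cdk6 at chr5:3343643-3343892 (plus) and Cdkn2d at chr9:21291210-21291459 (minus). By the gene coordinates given above, the Cdk6 run lies inside the gene and the Cdkn2d run reaches into the 5′ end of its gene. Capitals mark E-boxes (CACGTG) and GC boxes (the letters GGGCGG on either strand).
Cdk4: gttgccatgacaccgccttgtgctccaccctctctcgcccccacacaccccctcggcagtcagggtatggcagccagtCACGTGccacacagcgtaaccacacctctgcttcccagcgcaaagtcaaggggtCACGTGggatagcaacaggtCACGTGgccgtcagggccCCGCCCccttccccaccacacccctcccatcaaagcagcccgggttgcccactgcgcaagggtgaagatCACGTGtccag
Cdk6: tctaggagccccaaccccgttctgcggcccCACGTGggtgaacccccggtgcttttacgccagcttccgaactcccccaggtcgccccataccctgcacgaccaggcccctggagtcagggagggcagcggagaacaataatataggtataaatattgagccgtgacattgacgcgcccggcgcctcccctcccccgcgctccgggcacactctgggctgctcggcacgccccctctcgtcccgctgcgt
Cdkn2d: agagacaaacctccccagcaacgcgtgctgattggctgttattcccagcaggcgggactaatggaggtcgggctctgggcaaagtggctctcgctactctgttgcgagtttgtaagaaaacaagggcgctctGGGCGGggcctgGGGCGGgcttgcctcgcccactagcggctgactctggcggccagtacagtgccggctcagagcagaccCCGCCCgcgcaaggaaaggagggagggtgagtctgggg
The Cdk4 run held 4 E-boxes, the nearest 11 bases before the start, and 1 GC box. The Cdk6 run held 1 E-box, 220 bases before the start, and the Cdkn2d run held 3 GC boxes. Among 32851 promoters of the same length, 6.02% held an E-box and 32.7% a GC box. Searches on both strands for an E2F motif (TTTCGCGC, TTTGGCGC, TTTCCCGC or TTTGCCGC) found none in these runs, and for a GATA motif (GATA after A or T and before A or G) none. Of all promoters, 1.86% and 26.5% held them. Of the members, 7 had an entry in the promoter table, and the GATA letters were found once among them, 195 bases before the first listed start of Cdkn1a.

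Cdkn2d lay between 24.3 and 731.5 CPM (median 150.4) in Gata3-GFP+ HCs and between 12.9 and 91.2 CPM (median 34.7) in Gata3-GFP- HCs. All but 1 of the 20 Gata3-GFP+ pools were above the Gata3-GFP- median and 14 were above every Gata3-GFP- pool. The log2 fold change was 2.24 ± 0.31 (adjusted p = 2.9e-07), 4.71-fold. Cdkn1a (-1.11 ± 0.37, adjusted p = 0.0162), Cdkn2c (-1.24 ± 0.47, adjusted p = 0.0341) and Cdkn1b (-0.32 ± 0.22, adjusted p = 0.279) were not called. Cdkn1c was called at 4.11 ± 0.46, the largest of all the inhibitors in this contrast.

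The fractions also differed in markers of hematopoietic cells, whose 7 listed genes had median sums of 3029 CPM in Gata3-GFP+ and 4974 CPM in Gata3-GFP- HCs. Of these genes only Itga2b had a higher median in Gata3-GFP+ HCs (232.6 and 8.66 CPM). The medians of Ptprc, Spi1, Vav1, Coro1a, Laptm5 and Tyrobp were lower. Csf1r, from outside the list, was at 442.6 and 758.0 CPM. The part of these hematopoietic markers in the differences above was not tested. Gata3-GFP+ HC pools also carried markers of other cells. The 7 endothelial markers summed to 86.7 to 582.2 CPM in Gata3-GFP+ and to 30.8 to 153.7 CPM in Gata3-GFP- HCs, and all 7 had a median of at least 1 CPM in both. The mesenchymal markers reached 646.3 CPM (133.8 CPM in Gata3-GFP- HCs) and the SNS markers 1288 CPM (8.90 CPM), and 4 Gata3-GFP+ HC pools and 1 Gata3-GFP+ EC pool had more than 500 CPM of both lists combined. Without these 5 pools Ccnd2 (0.63), Ccnd3 (0.86), Cdk6 (-1.22) and Cdkn2d (2.21) were called, beside 22.7% of all genes, while Cdk4 (0.17, adjusted p = 0.0859) was not and Ccnd1 was at 0.22. The part of the endothelial markers in these differences was not tested.

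In the same lists in HCs, of 16 proliferation genes 7 fell and none rose (Mcm5 -0.86, Mki67 -0.72), with a median of -0.42 beside 0.05 over all genes, and no E or A cyclin and no part of the CDK-activating kinase was called. Rb1 rose (1.21) while its relative Rbl1 fell (-0.72). Mycn rose (3.12) and Myc fell (-1.24). Of 10 E2F factors and partners Tfdp2 (2.07) and E2f5 (0.85) rose and 3 fell, E2f8 (-1.23) and E2f4 (-0.53) most. Of 13 assembly and turnover genes Skp1a (0.72) and Gsk3b (0.60) rose and Hsp90ab1 (-0.43) fell. Of 16 p53 genes Phlda3 (1.73) and Trp53inp1 (1.29) rose, and of the FoxO factors Foxo3 fell (-0.44).

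The Gata3-GFP+ HC pools were unlike each other in Ccnd3 and Cdkn2d. Over the 20 pools the log2 levels of these genes had a Pearson correlation of 0.89 (Spearman 0.81), and each rose with Itga2b, the gene of CD41, an early hematopoietic marker (0.88 for both). Both ran against Csf1r, the macrophage growth factor receptor (-0.75 for Ccnd3 and -0.67 for Cdkn2d), and Cdk6 ran against Ccnd3 (-0.69). One pool had the most Ccnd3 (720.6 CPM), Cdkn2d (731.5 CPM) and Itga2b (1412 CPM) and the least Cdk6 (25.3 CPM) and Csf1r (10.7 CPM). Another was at the other end, with 68.6 CPM of Ccnd3, 24.3 CPM of Cdkn2d, 9.49 CPM of Itga2b and 1096 CPM of Csf1r. In the 20 Gata3-GFP- HC pools the correlation of Ccnd3 and Cdkn2d was 0.03, over a narrower range of both. The points of such a correlation share the library, its depth and its mixture of cells.

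**Figure D5:**
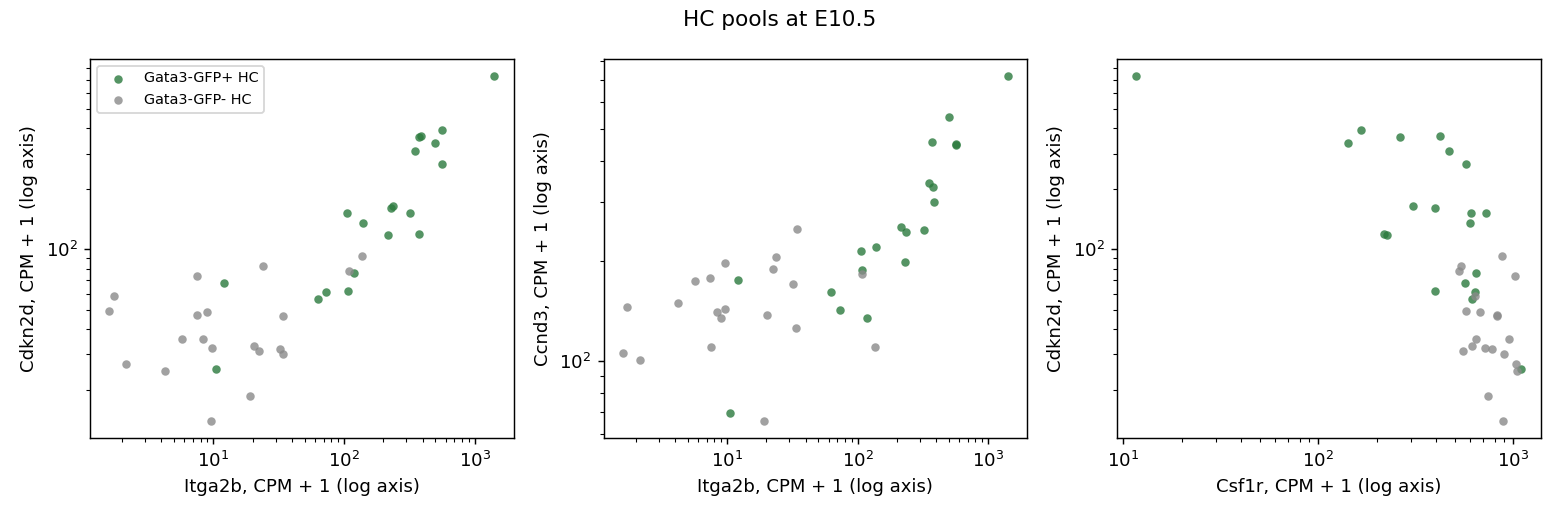
Cdkn2d and Ccnd3 against Itga2b, and Cdkn2d against Csf1r, in the HC pools at E10.5 (CPM + 1, log axes), 1 point per pool, green for Gata3-GFP+ and grey for Gata3-GFP-. Along the Gata3-GFP+ pools Cdkn2d goes from 24.3 CPM at 9.49 CPM of Itga2b to 731.5 CPM at 1412 CPM of Itga2b.

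The difference between the contrasts in ECs and HCs was tested as an interaction. It was called for 7 of 9 members, beside 22.7% of all genes. As the effect in ECs minus the effect in HCs, it was negative for Ccnd1 (-4.10 ± 0.43), Ccnd2 (-0.78 ± 0.21), Ccnd3 (-0.78 ± 0.23), Cdk4 (-0.88 ± 0.12) and Cdkn2d (-1.80 ± 0.38). It was positive for Cdk6 (1.40 ± 0.25) and Cdkn1b (1.17 ± 0.26). For Cdkn1a it was -0.34 (95% interval -1.57 to 0.88) and was not called, nor was Cdkn2c (2.58 ± 0.90, adjusted p = 0.0197). Without the 5 pools with most mesenchymal and SNS markers, Ccnd2 (-0.58, adjusted p = 0.0321) and Ccnd3 (-0.63, adjusted p = 0.0332) lost the call, beside 21.2% of all genes.

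At E11.5 the first question was how Gata3-GFP+ differ from Gata3-GFP- MCs. Among the matching pools Ccnd2, Ccnd3 and Cdk4 were lower in Gata3-GFP+ MCs, 3 of the 8 members that could be tested, beside 10.4% of all genes. With the 12 pools included 1 of 9 was called (Ccnd2), beside 4.36%. Ccnd2 ran from 369.9 to 679.5 CPM (median 519.7) in the 17 matching Gata3-GFP+ pools and from 742.4 to 1036 CPM (median 858.2) in the 14 matching Gata3-GFP- pools. These did not overlap, but how many of all genes were separated in this way was not counted. The log2 fold change of Ccnd2 was -0.78 ± 0.07 (adjusted p = 3.2e-10), or -0.58 ± 0.12 (adjusted p = 0.000973) over all passing pools.

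Ccnd3 had medians of 195.6 and 238.4 CPM with 12 of 17 Gata3-GFP+ pools below every Gata3-GFP- pool (-0.34 ± 0.08, adjusted p = 0.00236; all pools -0.28, adjusted p = 0.0183). Cdk4 had medians of 953.1 and 1110 CPM (-0.22 ± 0.04, adjusted p = 0.000416; all pools -0.18, adjusted p = 0.0178). Ccnd1 was low in both fractions, between 10.3 and 59.4 CPM and between 28.1 and 92.4 CPM, and was not called (-0.72 ± 0.21, adjusted p = 0.0131). None of Cdk6 (-0.31), Cdkn1b (-0.40), Cdkn2c (1.65) and Cdkn2d (0.04) was called, and Cdkn1a was too low in the matching pools to be tested. Cdkn1c was higher in the matching Gata3-GFP+ MCs (0.42 ± 0.09, adjusted p = 0.000852) and at -0.25 with all pools.

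Without the 12 pools, 7 of 16 proliferation genes fell in Gata3-GFP+ MCs and none rose (Ccnb2 -1.41, Birc5 -1.22). Of the 6 genes of the E and A cyclin list, Ccne1 (-1.52) and Ccna2 (-1.11) fell. Of 13 assembly and turnover genes 3 fell, Cks1b (-0.48) and Cdc37 (-0.40) the most, and Myc (1.03) and Trp53inp1 (0.76) rose. With the 12 pools included, 2 of 16 proliferation genes fell (Pcna -0.65, Mcm5 -0.58), as did 1 gene of the E and A cyclin list (Ccne1 -1.16). Then 2 of 13 assembly and turnover genes fell (Cdc37 -0.37, Skp1a -0.21), and no Myc or p53 gene was called. In either fit, no pocket protein, E2F factor, FoxO factor or part of the CDK-activating kinase was called. The smooth muscle markers summed to 3773 to 9777 CPM in Gata3-GFP+ and 751.2 to 4553 CPM in Gata3-GFP- MCs, and their part in these differences was not tested.

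In SNS cells the matching pools gave higher Ccnd1 and Cdkn2d and lower Cdk6 in the Gata3-GFP+ fraction, 3 of 9 members beside 10.4% of all genes. With the 12 pools included Cdkn2d alone was called, 1 of 9 beside 3.87%, and it lost that call in 2 of 12 alternative settings (adjusted p up to 0.0196). Some of these settings repeated the same fit or only loosened the threshold, so they could not lose the call. Ccnd1 ran from 361.0 to 1004 CPM (median 755.5) in the 15 matching Gata3-GFP+ pools and from 239.9 to 568.1 CPM (median 395.4) in the 16 matching Gata3-GFP- pools. Of the Gata3-GFP+ pools 11 were above every Gata3-GFP- pool, and the log2 fold change was 0.80 ± 0.12 (adjusted p = 7.6e-06). Over all passing pools its value was 0.80 ± 0.34, with an adjusted p of 0.153.

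Cdk6 lay between 37.2 and 108.1 CPM (median 78.9) in Gata3-GFP+ and between 69.7 and 194.7 CPM (median 129.9) in Gata3-GFP- SNS cells, and 12 of 16 Gata3-GFP- pools were above every Gata3-GFP+ pool (-0.76 ± 0.15, adjusted p = 0.000373; all pools -0.70, adjusted p = 0.0311). Cdkn2d ran from 37.9 to 92.9 CPM (median 68.4) in Gata3-GFP+ and from 19.4 to 52.96 CPM (median 32.03) in Gata3-GFP- SNS cells. Its log2 fold change was 0.95 ± 0.14 (adjusted p = 6.5e-06), and 0.78 ± 0.16 (adjusted p = 0.00128) with all pools. Cdk4 was not called in either fit, with medians of 1257 and 1233 CPM and a 95% interval of the difference from -0.04 to 0.11, nor was Ccnd2 (interval -0.17 to 0.21). Ccnd3 (0.20), Cdkn1a (-1.81), Cdkn1b (0.36) and Cdkn2c (1.46) were not called, and Cdkn1c was, at 1.25 ± 0.08 (1.17 with all pools).

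Without the 12 pools, 3 of the 5 tested genes of the E and A cyclin list rose, Ccne2 (1.06) and Ccne1 (0.77) among them. Of 16 proliferation genes 1 rose (Pcna 0.60), and none of either list fell. E2f2 (1.93), Tfdp1 (0.44), Myc (0.75), Fbxw7 (0.67) and Skp2 (0.57), the last 2 parts of ubiquitin ligases that degrade G1 regulators, also rose. Of the p53 genes Zmat3 (0.59) and Trp53inp1 (0.58) rose and Phlda3 (-1.15) fell, and Foxo3 fell (-0.56). Over all passing pools, Ccne2 (1.05), Ccna2 (0.66) and Pcna (0.61) rose and no other gene of these lists was called. Glia and neural crest markers summed to 340.0 to 908.8 CPM in Gata3-GFP+ and 698.8 to 995.0 CPM in Gata3-GFP- SNS pools, and their part in these differences was not tested.

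As the effect in MCs minus the effect in SNS cells, the interaction was called without the 12 pools for 5 of 9 members, beside 10.4% of all genes. These were Ccnd1 (-1.52 ± 0.24), Ccnd2 (-0.81 ± 0.12), Ccnd3 (-0.54 ± 0.14), Cdk4 (-0.27 ± 0.06) and Cdkn2d (-0.92 ± 0.23). With all passing pools it was called for 4 members, beside 9.66%: Ccnd2 (-0.67), Ccnd3 (-0.46), Cdkn2d (-0.99) and Cdkn1b (-0.83), the last of which was at -0.76 with an adjusted p of 0.0285 without the 12 pools.

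Between cell types, 6 of 9 members differed in HCs against ECs at E10.5, averaged over both fractions, beside 50.6% of all genes. Cdk6 (1.59 ± 0.13), Cdkn2c (2.23 ± 0.46) and Cdkn2d (1.45 ± 0.19) were higher in HCs, and Ccnd2 (-0.40 ± 0.11), Cdk4 (-0.34 ± 0.06) and Cdkn1b (-0.81 ± 0.13) were lower. The fractions were not alike in this. Mean Ccnd2 was 313.1 CPM in HCs and 311.9 CPM in ECs among Gata3-GFP+ pools, but 181.5 and 303 CPM among Gata3-GFP- pools. In the same order Cdk4 was at 690.3 and 634.8 against 557.9 and 922 CPM. Cdkn1b was at 17.3 and 45.05 against 21.7 and 24.6 CPM. Ccnd1, which was not called, was at 59.5 and 17.8 against 35.5 and 176.7 CPM. Under ERCC scaling Ccnd2 (0.01) and Cdk4 (0.05) turned in sign and were not called, as the median of all genes moved from 0.04 to 0.43. Ccnd3 (0.55) and Cdkn1a (1.37) were then called higher in HCs, beside 7403 genes called higher and 2509 lower. In the fit without ERCC scaling, 13 of 16 proliferation genes rose and none fell (Aurkb 0.92, Mcm5 0.92), and all 3 pocket proteins rose, Rb1 by 1.34 and Rbl2 by 1.29. Of the 5 tested genes of the E and A cyclin list 3 rose and none fell. Other lists went both ways. Of 10 E2F factors and partners 3 rose and 5 fell, and of 17 p53 genes 4 rose and 7 fell. Of 3 CDK-activating kinase genes 1 rose and 2 fell, and of 13 assembly and turnover genes 1 rose and 3 fell.

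In SNS cells against MCs at E11.5, the matching pools gave 5 of 9 members, all higher in SNS cells, beside 40.2% of all genes called and 20.5% called higher. Ccnd1 was 11.9-fold higher (3.57 ± 0.13), and no matching SNS pool of either fraction overlapped a matching MC pool. The share of all genes separated in this way was not counted. Ccnd2 (0.55 ± 0.06), Cdk4 (0.28 ± 0.03), Cdk6 (1.30 ± 0.13) and Cdkn1a (2.71 ± 0.65) were also called, Cdkn1a at levels of a few CPM. With the 12 pools included 4 members were called, beside 23.4%, and Ccnd1 was 4.25-fold higher (2.09 ± 0.32). Among the neighbouring lists without the 12 pools, 5 of 6 genes of the E and A cyclin list rose (Ccne1 1.55, Ccne2 0.92), as did 6 of 16 proliferation genes (Mcm2 0.74, Mcm7 0.70) and Mycn (3.13). Over all passing pools, 3 of those 6 (Ccne1 1.07, Ccne2 0.73) and 6 of 16 proliferation genes rose, and Mycn was at 1.85. Some lists also held genes that fell. Without the 12 pools 2 of 3 CDK-activating kinase genes fell and none rose. Of 16 p53 genes 8 then rose and 2 fell, and of 13 assembly and turnover genes 7 rose and 1 fell. With all passing pools 1 CDK-activating kinase gene fell, 3 p53 genes rose and 1 fell, and 3 assembly and turnover genes rose.

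Over all passing pools the genes most like each member were sought by the Pearson correlation of log2(CPM + 1) among 12136 genes, as a description of pools that share cell type and depth. Ccnd1 was most like Glrx3 (0.79), Coro1c (0.78) and Kcnk5 (0.78). Ccnd2 and Cdk4 shared their closest gene, Dcakd (0.85 and 0.89), followed by Srsf10 (0.84) and Cdkn1c (0.84) for Ccnd2 and by Mrfap1 (0.89) and Nono (0.86) for Cdk4. Ccnd3 came with Mff (0.65), Gm4202 and R3hdm4 (0.62 each), and Cdk6 with Csk, Rcc2 (0.73 each) and Pgd (0.72). Among the inhibitors, Cdkn1a came with Fau (0.73), Actr2 and Rps6ka1 (0.72 each), Cdkn2d with Prkar2b (0.72), Capn3 (0.71) and 1810058I24Rik (0.70), while no gene was above 0.57 for Cdkn1b (Clasp2, Skil and Nisch) or Cdkn2c (Slc3a2, Ly6e and Gusb).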

How the data were processed

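The deposited values are raw read counts per gene for 160 pools, as the authors made them. The submitters' processing notes name GSNAP, HTSeq 0.5.3p3 and mm10, whereas the study's methods describe STAR and an Ensembl annotation; which made the deposited table is not settled here. Summary rows that name no gene (38.3% to 67.6% of all counts) were left out, and 4.62% to 19.8% of counts were ambiguous between genes. Pools were kept with at least 500000 reads, 20% of reads on genes, and under 20% mitochondrial and under 20% ERCC reads, which removed 7. Symbols came from GENCODE M21. Levels are CPM after TMM scaling; the marker sums used to check labels are CPM of each pool's own gene counts.

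Tested genes had 10 or more counts in 5 or more of the pools entering a fit. The test was the edgeR 4.0.16 quasi-likelihood test (robust, R 4.3.3), 2-sided, with Benjamini-Hochberg adjustment over all genes. Called genes had an adjusted p below 0.01 with a log2 fold change outside ±0.1. On simulated counts for the Gata3-GFP contrast in ECs (14572 genes), 46.9% of 98 genes changed 2-fold and 80.4% of 92 changed 4-fold were called, with 1 false call. Limits given for counts of 0 cover counting error only.

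Named beside the 9 members were Gata3, Cdkn1c, Cdkn2a and Cdkn2b, at most 2 called genes per list and direction in each comparison, and the 3 genes most correlated with each member. Members and lists were chosen with earlier results of these data known. The pools left out as going against their E11.5 label, and the 5 E10.5 pools with most mesenchymal and SNS markers, were chosen after seeing the data. Alternatives were ERCC scaling, scran 1.30.0 size factors, DESeq2 1.42.0, scanpy 1.11.5, other filters and thresholds, all deposited pools and 1 fit of all 8 populations.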

Additional observations from a re-analysis of the deposited data

Results flagged for a closer look

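The Gata3-GFP effect differed between cell types for several members, by the interaction test in edgeR. Between ECs and HCs, as the effect in ECs minus that in HCs, the log2 difference was -4.10 for Ccnd1, -0.78 for Ccnd2, -0.78 for Ccnd3, -0.88 for Cdk4, 1.40 for Cdk6, 1.17 for Cdkn1b and -1.80 for Cdkn2d. Between MCs and SNS cells over all passing pools it was -0.67 for Ccnd2, -0.46 for Ccnd3, -0.83 for Cdkn1b and -0.99 for Cdkn2d. Under ERCC scaling the EC-HC difference of Cdkn1b was 0.75 and no longer called. Populations held 17 to 20 passing pools, so no check for a single far pool was made.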

How the results depend on the processing

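Of the values for the 9 members and Cdkn1c under alternative settings, 687 kept their direction and side of the threshold, 29 gained a call, 19 lost one and 19 changed sign. No paired analysis was possible because the count columns carry no pool numbers that are shared between groups. Pools of 20 cells and low counts limit what can be said of Cdkn1a, Cdkn2c and Cdkn2b.

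With ERCC scaling the median log2 fold change of all genes moved to -0.60 in ECs, 0.35 in SNS cells, -0.75 and -0.37 in the EC-HC and MC-SNS interactions, 0.43 in HCs against ECs and 0.48 in SNS cells against MCs. The genes tested stayed at 15073 in ECs, 16200 in HCs, 16026 in MCs, 16143 in SNS cells and 17733 in SNS cells against MCs. Members called were then 5 in ECs, 3 in HCs (Ccnd2 and Cdk4 lost their calls, with 2097 genes higher and 948 lower), 0 in MCs (edgeR) and 7 in SNS cells against MCs. Genes called were 381 in MCs, 1013 in SNS cells and 8545 in SNS cells against MCs, and 19 neighbouring steps were called. The share of all genes called in those neighbouring pairs under ERCC scaling is not given here, so the 19 cannot be read as particular to the members. Signs changed for Ccnd2 (-0.63), Ccnd3 (-0.64), Cdk6 (-0.28) and Cdkn2d (-0.35) in ECs, Ccnd2 (0.0107) and Cdk4 (0.0491) in HCs against ECs, and Cdkn1a (-0.40) in the MC-SNS interaction. Genes called higher and lower went from 2932 and 2492 to 951 and 5685 in ECs, from 354 and 344 to 276 higher of 381 called in MCs, from 325 and 300 to 844 and 169 in SNS cells, from 1536 and 2524 to 519 and 5241 and from 796 and 917 to 443 and 1423 in the interactions, from 4748 and 4282 to 7403 and 2509 in HCs against ECs, and from 2013 and 2135 to 7623 and 922 in SNS cells against MCs.

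At an adjusted p under 0.05, 8 members were called in HCs (with 3649 genes higher and 2378 lower of 16200), 4 in MCs and 2 in SNS cells. Genes called were 1514 of 16026 in MCs, 1334 of 16143 in SNS cells and 2961 of 17733 in the MC-SNS interaction. At this threshold 10 neighbouring steps were called, and the share of all genes called in those pairs is not given here. Without the 12 pools against their label, 3 members were called in MCs and 3 in SNS cells, and 10 neighbouring steps were called, beside a median of 38.25% of all genes. Genes called were 1585 in MCs (10.4%), 1631 in SNS cells (10.4%) and 6963 in SNS cells against MCs (40.2%). Then Cdk6 (-0.31), Cdkn2d (0.0425) and Cdkn1c (0.42) changed sign in MCs and Cdkn2c (0.19) in the MC-SNS interaction. In 1 fit of all 8 populations 1130 genes were called in MCs and 0 members in SNS cells, and scanpy called 0 members there, with Cdkn2d at an adjusted p of 0.0196 and 0.0117. With scanpy, Ccnd2 in ECs (-0.10), Cdk6 (-0.0449) and Cdkn1c (0.13) in MCs changed sign, with DESeq2 Cdkn1a (2.03) and Cdkn1c (0.0635) in MCs. Ccnd2 in ECs was at -0.10 with scran, -0.0105 with all deposited pools and -0.0271 without the 5 pools with most mesenchymal and SNS markers. Splits of higher and lower genes were 2257 and 3322 in ECs, 2401 and 2141 in HCs (2763 and 1544 in the reported fit) and 190 and 269 in SNS cells with scanpy, 273 and 405 in SNS cells with 1 fit, and 1928 and 2012 in the EC-HC interaction with scran. Beyond the settings' own construction the cause of these changes was not tested.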
